A study of Mus musculus with 2 samples.

Results

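The growth factor receptors of blood progenitors were examined in mouse bone marrow cells given either a GFP control or Satb1, a nuclear protein with a liking for AT-rich DNA. The 9 receptor genes were Kit, Flt3, Csf1r, Csf2ra, Csf2rb, Csf3r, Epor, Il3ra and Il7r, out of 18193 genes measured. The rule went by gene name. Every probe set annotated with exactly 1 of these symbols was kept, which gave 15 probe sets out of 45037. A probe set is a group of short probes on the array that reads 1 stretch of a transcript.

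RNA came from wild-type C57BL6J mice. The sorted fraction was Lin- c-kitHi Sca-1+ Flt3-, also called LSK Flt3-, which is rich in blood stem cells, and it was the same for both arrays. The GFP group was 1 array of GFP-transduced cells, and the Satb1 group was 1 array of Satb1-transduced cells. With 1 array per group there was no replicate check, no standard error and no p-value for any difference below, and no paired or leave-one-out comparison could be made. The sources used here do not give the vector, the time after transduction, the number of animals or their age.

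These receptors tell a progenitor which growth factors it can answer. Kit, Flt3 and Csf1r are receptor tyrosine kinases, whose own intracellular part phosphorylates targets once stem cell factor, Flt3 ligand or M-CSF binds. The other 6 belong to the cytokine receptor family, have no kinase of their own and signal through bound Janus kinases and STAT proteins. Csf3r and Epor pair with themselves to bind G-CSF and erythropoietin. Csf2ra and Il3ra are the alpha chains that give GM-CSF and IL-3 receptors their specificity, and Csf2rb is the beta chain they share. Il7r is the alpha chain for IL-7 and is known for early lymphoid development.

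The readout was the MAS5 intensity, an arbitrary linear unit. An intensity under 61.7, the median of all values on both arrays, was set to that floor before a difference was taken, since dim MAS5 values are noisy. Differences are log2 intensity on the Satb1-labelled array minus log2 intensity on the GFP-labelled array, so that 1 unit is 2-fold. The label check did not bear out the transduction: for Satb1 itself the signal was 1116 on the GFP-labelled array and 909 on the Satb1-labelled array (1416008_at, its brightest probe set). Its other probe sets were not higher on the Satb1-labelled array either. They read 908 against 963.5 on the GFP-labelled array (1416007_at), 165 against 288 (1436182_at) and 30.5 against 81.4 (1439449_at). The last (1439315_at) was under the floor on both, at 18.5 against 27.8. It is not known here whether any of these probe sets lies inside the transduced sequence. Both arrays are therefore called by their labels and every direction rests on them. Between the arrays, the log2 differences of the 21336 probe sets above the floor on both had a median of -0.03 and an SD of 0.33.

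All 9 receptor genes were above the floor on both arrays, taking for each gene its brightest probe set, as were 10316 of the 18193 genes measured (56.7%). Csf3r, the G-CSF receptor, was the only one of the 9 to differ by at least 2-fold, at 494 on the Satb1-labelled array against 1239 on the GFP-labelled array. Il3ra, the IL-3 receptor alpha chain, came just short, at 132 against 260. The other 7 receptors were within 1.5-fold. Over all genes above the floor on at least 1 array, 0.86% were 2-fold lower and 0.272% were 2-fold higher, and among the receptors 1 of 9 was lower and 0 of 9 higher. After quantile normalization the counts over all genes were 54 higher and 60 lower, against 30 higher and 95 lower as deposited, and with the median difference set to 0 they were 31 higher and 87 lower, so the excess of lower genes was small under the former and not under the latter. The same receptor was 2-fold lower under each scaling. At 1.5-fold, 2 of the 9 receptors were lower and 0 higher, where 3.91% of all genes were lower and 1.75% higher.

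The receptors leaned towards lower values, with 6 of the 9 lower by some amount and 3 higher. Of all genes above the floor 54.8% lay lower and 45.2% higher, so these counts were close to the background. The median log2 difference of the 9 was -0.21, against -0.02 for all genes above the floor, and it was -0.13 without Csf3r. Per probe set, 9 of the 14 above the floor were lower and 5 higher.

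**Figure D1:**
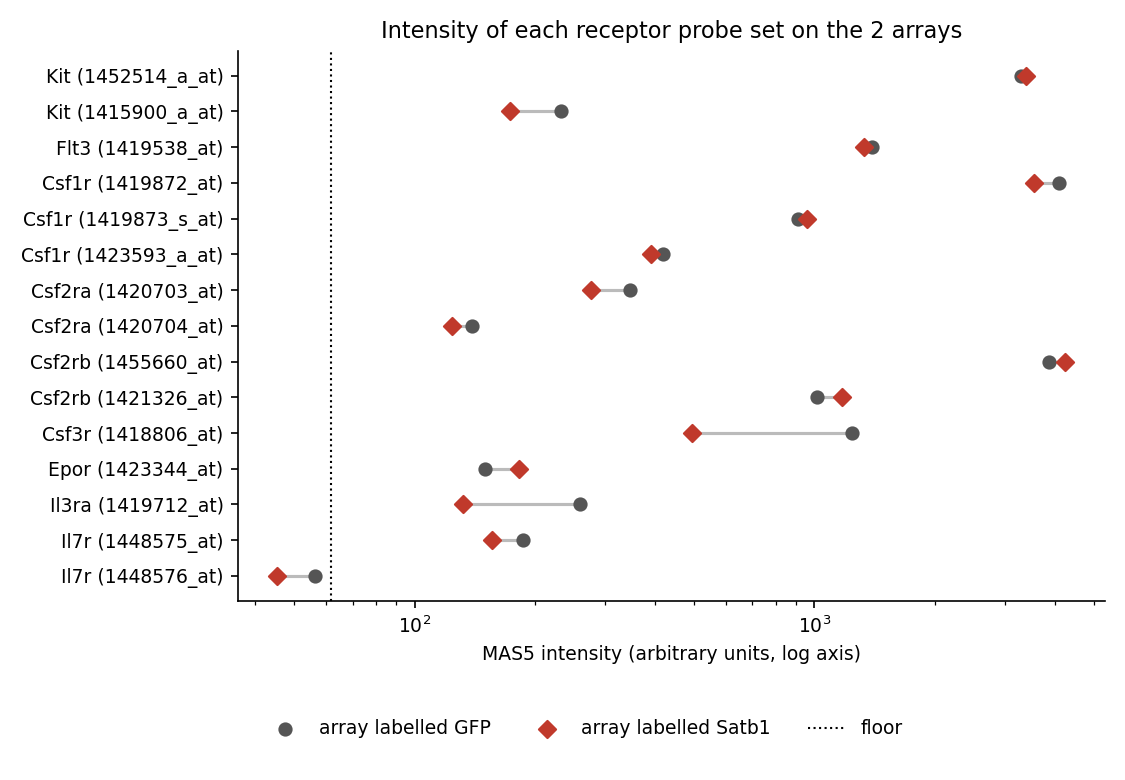
MAS5 intensity, on a log axis, of the 15 receptor probe sets on the GFP-labelled array (grey circles) and the Satb1-labelled array (red diamonds), with the floor of 61.7 as a dotted line. The widest gaps are those of Csf3r, from 1239 to 494, and Il3ra, from 260 to 132, and only the second Il7r probe set lies under the floor.

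The stretch of DNA before the start of transcription was taken from RefSeq (GRCm38.p6) for the members it lists, since Satb1 is known to bind AT-rich DNA and since several blood factors read short motifs there. The table matched 7 of the 9 receptors, the other members being Csf1r and Csf2rb. The arrays did not measure binding, so these windows describe the genes and are not a readout. Windows of 250 bases are shown for Csf3r and Il3ra, the receptors furthest lower, for Epor, the one furthest higher, and for Il7r, the one with the most A and T. They lie at chr4:126024409-126024658 on the plus strand for Csf3r, chr14:14346245-14346494 on the plus strand for Il3ra, chr9:21963577-21963826 on the minus strand for Epor and chr15:9529877-9530126 on the minus strand for Il7r. Capitals mark a match, on either strand, to GAGGAA (an ETS core read by PU.1), AGATAA (read by GATA factors), TTGCNNAA (read by C/EBP factors) or GGGCGG (a GC box read by Sp1).
Csf3r: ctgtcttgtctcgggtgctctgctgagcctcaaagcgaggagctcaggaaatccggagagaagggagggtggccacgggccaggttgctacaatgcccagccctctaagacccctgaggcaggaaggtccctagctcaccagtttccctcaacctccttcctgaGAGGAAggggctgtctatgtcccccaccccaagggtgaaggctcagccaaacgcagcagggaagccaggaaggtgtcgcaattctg
Il3ra: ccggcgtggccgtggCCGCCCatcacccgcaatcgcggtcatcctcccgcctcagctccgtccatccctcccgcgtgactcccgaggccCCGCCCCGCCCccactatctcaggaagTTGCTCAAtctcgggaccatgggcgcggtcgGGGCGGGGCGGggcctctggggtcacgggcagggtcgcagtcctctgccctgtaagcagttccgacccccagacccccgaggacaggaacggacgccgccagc
Epor: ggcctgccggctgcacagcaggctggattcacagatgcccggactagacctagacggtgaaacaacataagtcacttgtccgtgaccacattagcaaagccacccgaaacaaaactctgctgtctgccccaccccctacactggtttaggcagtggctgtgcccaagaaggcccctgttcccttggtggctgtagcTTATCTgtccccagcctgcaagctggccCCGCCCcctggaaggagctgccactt
Il7r: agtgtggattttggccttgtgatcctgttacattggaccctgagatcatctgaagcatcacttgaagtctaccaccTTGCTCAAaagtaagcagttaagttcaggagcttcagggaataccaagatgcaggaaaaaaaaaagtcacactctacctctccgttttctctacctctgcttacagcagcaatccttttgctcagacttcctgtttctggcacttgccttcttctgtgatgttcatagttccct

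In these letters Csf3r held 1 GAGGAA match, and Il3ra held 5 GC boxes (some of which overlap) and 1 C/EBP match. Epor held 1 GATA match and 1 GC box, and Il7r held 1 C/EBP match. Only the strings given above were counted, so other forms of these sites, such as other ETS sites, are not in the counts. Of the 32851 windows of the same length in the table, 23.3% held GAGGAA, 9.99% AGATAA, 9.56% the C/EBP motif and 32.7% the GC box. A and T made up 40% of the Csf3r window, 27.6% of the Il3ra window, 41.2% of the Epor window and 56% of the Il7r window, where the median window had 47.6%. The Il3ra window was among the most GC-rich, with 6.05% of windows lower in A and T. In the windows that are not printed, A and T made up 29.2% for Kit, 40.8% for Flt3 and 35.2% for Csf2ra. Kit held 1 GAGGAA match and 1 GC box in each of its 2 windows. Csf2ra held 2 GAGGAA matches and 1 GC box, and Flt3 held no match, so GAGGAA was not particular to Csf3r.

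Csf3r was read by a single probe set (1418806_at). It read 1239 on the GFP-labelled array and 494 on the Satb1-labelled array, a log2 difference of -1.33, or 2.51-fold lower. Of the 11048 genes above the floor, 22 had a lower difference, which placed Csf3r at rank 23. A yardstick for technical scatter was the SD among the log2 differences of probe sets that read the same gene, which was 0.19 at intensities from 500 to 2000. It was taken within each intensity range, so probe sets of 1 gene that fell in different ranges were not compared. That SD lacks the error of preparing 2 RNA samples, so it is not the error of the difference, and with a single probe set no second reading of Csf3r was at hand.

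The G-CSF receptor marks the neutrophil line, so neutrophil genes are given beside it. Of 10 measured neutrophil markers, 9 were above the floor, 5 were 2-fold higher and 1 was 2-fold lower, and the list's summed intensity was 19088 on the Satb1-labelled array against 6763 on the GFP-labelled array. Csf3r therefore read lower on the array where 5 of these 9 markers were 2-fold higher. Camp, which encodes the antimicrobial peptide cathelicidin, read 834 against 187, and S100a8 and S100a9, the calprotectin subunits, read 10109 against 3094 and 4539 against 1578. Ltf, the lactoferrin gene, read 306 against 93.2 and Lcn2, the lipocalin 2 gene, 1123 against 381. The lower marker, singled out after its value was seen, was the chemokine receptor gene Cxcr2, at 88.8 against 190, and Mmp9, a neutrophil gelatinase gene, was under the floor on both arrays (42.8 and 5.5). In bulk RNA, fewer cells of a type and less RNA per cell cannot be told apart, and the part of neutrophil content in the Csf3r difference was not tested.

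Il3ra, the IL-3 receptor alpha chain, was also read by a single probe set (1419712_at). It read 260 on the GFP-labelled array and 132 on the Satb1-labelled array, a log2 difference of -0.98, or 1.97-fold lower, at rank 98 of 11048 from the lowest. Probe sets of the same gene scattered by an SD of 0.35 at intensities under 200, so dim receptors such as this are known less well than Csf3r. Both readings stayed above the floor of 61.7, but a floor at the 75th percentile (443) lies over both and makes the difference 0. Mast cells and basophils are classical IL-3 responders. Of 10 measured markers of mast cells, basophils and eosinophils, 8 were above the floor, 3 were 2-fold lower and 1 was 2-fold higher, and their summed intensity was 11976 on the Satb1-labelled array against 18356 on the GFP-labelled array. Fcer1a, the IgE receptor alpha chain, read 65.4 against 397, Mcpt8, a basophil protease, 1449 against 4653 and Ms4a2, the IgE receptor beta chain, 560 against 1227. The brightest of the list were Cpa3, a mast cell carboxypeptidase, at 5347 against 7418, and Gata2, a transcription factor gene shared with stem cells, at 2629 against 2698. Prg2, the eosinophil major basic protein, went the other way, at 825 against 194, while Epx, the eosinophil peroxidase gene, was under the floor on both (21.4 and 50.2). Their part in the Il3ra difference was not tested.

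The chain that pairs with Il3ra read slightly higher instead. Csf2rb read 3869 on the GFP-labelled array and 4245 on the Satb1-labelled array by its brighter probe set (1455660_at), a log2 difference of 0.13. The second one (1421326_at) read 1015 and 1171 and so differed by 0.21. Both probe sets of the shared beta chain thus leaned the same way, each by about the SD between probe sets at its intensity. In the mouse a close copy, Csf2rb2, encodes a beta chain used for IL-3 and lies next to Csf2rb on the chromosome. For Csf2rb2 the signal was 971 and 1059 (1449360_at), which is 0.13 higher on the log2 scale. A further probe set annotated with both symbols (1450200_s_at) was left out by the rule and was under the floor, at 15.6 and 17.4. How far the copies share signal on the array was not tested, so the values of Csf2rb and Csf2rb2 are uncertain as readings of 1 gene each.

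Csf2ra, the GM-CSF receptor alpha chain, read 346 on the GFP-labelled array and 276 on the Satb1-labelled array by its brighter probe set (1420703_at), a log2 difference of -0.33. The dimmer one (1420704_at) read 139 and 124 and so differed by -0.17. Both leaned lower, by 1.16 and 0.48 times the SD between probe sets. The alpha chains Il3ra and Csf2ra were therefore lower and the beta chain they share higher, and of the 3 only Il3ra was outside 1.5-fold. Il5ra, the alpha chain for IL-5 and the third partner of this beta chain, was under the floor on both arrays, at 34.9 and 24.1.

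The tyrosine kinase receptors differed little. Kit, whose product c-Kit is part of the sorting gate, read 3293 on the GFP-labelled array and 3388 on the Satb1-labelled array by its brighter probe set (1452514_a_at), a log2 difference of 0.04. The dimmer one (1415900_a_at) read 232 and 174 and so differed by -0.42. The Kit probe sets thus disagreed in sign, and the mean over both was -0.19. By mean intensity the bright one lies over 2000, where the SD between probe sets was 0.13. The dimmer one lies between 200 and 500, where that SD was 0.28. Neither SD covers the disagreement of the Kit pair, since the pair spans both ranges.

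Flt3 was read by a single probe set (1419538_at), at 1390 on the GFP-labelled array and 1334 on the Satb1-labelled array, a log2 difference of -0.06. The sorted cells are described as lacking Flt3 at the surface, yet this transcript lay above 87.8% of all probe sets on the GFP-labelled array and above 87.4% on the Satb1-labelled array. Surface protein was not measured here. Csf1r, the M-CSF receptor of the monocyte line, had 3 probe sets. The brightest (1419872_at) read 4099 and 3548.5, a difference of -0.21. The others read 911 and 958 (1419873_s_at), a difference of 0.07, and 418 and 391 (1423593_a_at), a difference of -0.10. The Csf1r probe sets therefore did not share a sign, and all 3 were within 1.5-fold.

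Monocyte genes are given beside Csf1r. Of 11 measured monocyte and macrophage markers, 1 was 2-fold higher, 0 were 2-fold lower and 10 were within 2-fold, and their summed intensity was 6728 on the Satb1-labelled array against 7750 on the GFP-labelled array. The higher one was Klf4, a transcription factor gene, at 324 against 153. Ccr2, the chemokine receptor of inflammatory monocytes, read 2221 against 3172, and Mpeg1, the perforin-2 gene of macrophages, 1850 against 2050. Their part in the Csf1r values was not tested.

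Epor, the erythropoietin receptor, had the highest difference of the 9. Its single probe set (1423344_at) read 150 on the GFP-labelled array and 183 on the Satb1-labelled array, a log2 difference of 0.29. That is 0.81 times the SD between probe sets at such dim intensities, so it was inside the scatter between probe sets of 1 gene. Of 10 measured erythroid markers only 4 were above the floor, none was 2-fold apart, and all 4 were higher by some amount: Klf1 and Gata1, factors of the erythroid line, read 138 against 87.1 and 644 against 466, and Tfrc, the transferrin receptor, and Car2, a carbonic anhydrase, 5408 against 4523 and 11142 against 9486. The globin gene Hba-a1 (6.6 and 3.8) and the haem synthesis gene Alas2 (1.6 and 1.3) were under the floor on both arrays. The part of erythroid content in the Epor value was not tested.

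Il7r, the IL-7 receptor alpha chain, read 187 on the GFP-labelled array and 156 on the Satb1-labelled array by its brighter probe set (1448575_at), a log2 difference of -0.26. Its second probe set (1448576_at) was under the floor on both arrays, at 56.4 and 45.4. The difference was 0.73 times the SD between probe sets and so inside it. Among 11 measured early lymphoid markers, Il7r among them, 6 were above the floor, 1 was 2-fold higher and 1 was 2-fold lower, with a summed intensity of 957 on the Satb1-labelled array against 1189 on the GFP-labelled array. Dntt, the terminal transferase gene, read 80.1 against 195, and Igll1, a surrogate light chain gene, 126 against 52.6, the latter under the floor. The other Igll1 probe set was under the floor on both arrays (6.1 and 7.2). The brightest of the list were Ly6d, a surface marker of B-biased progenitors, at 174 against 284, and Ccr9, a chemokine receptor gene of T-biased progenitors, at 145.5 against 246, where the other Ccr9 probe sets were under the floor. The median log2 difference of the 6 above the floor was -0.48. Il7r is 1 of those 6, so this median and the summed intensity are not independent of it. Rag1 (21.7 and 30.7), Cd79a (1.9 and 16.6) and Pax5 (9.7 and 33.2), also of this list, were under the floor on both. Their part in the Il7r value was not tested.

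**Figure D2:**
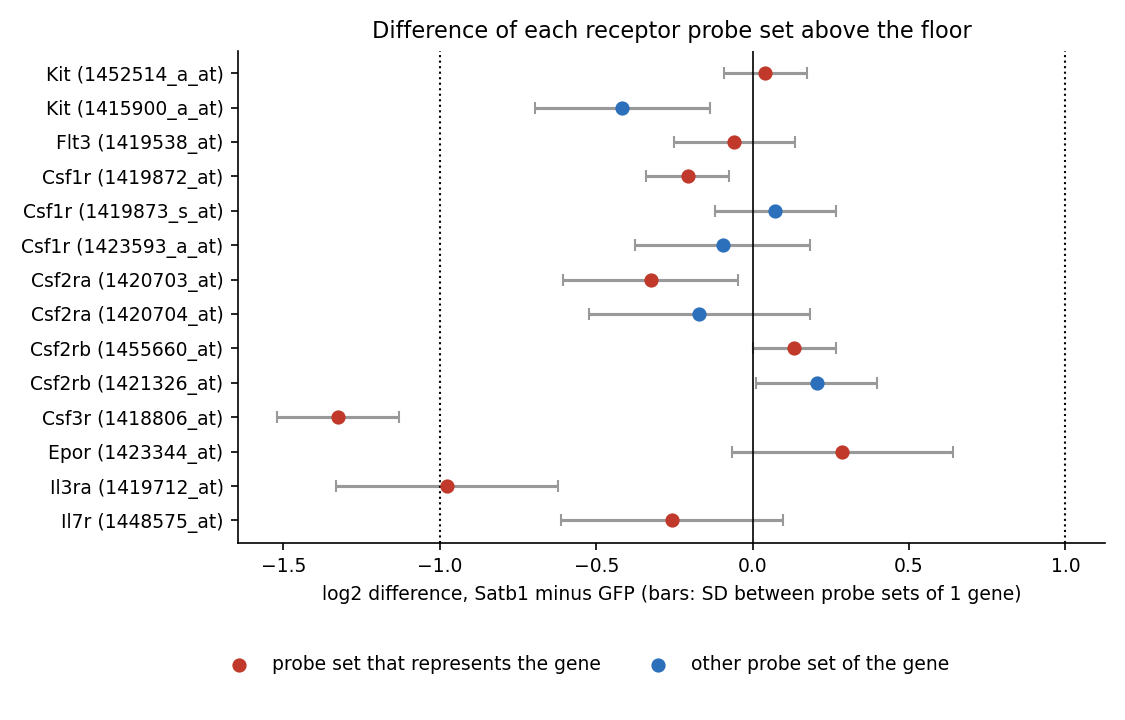
Log2 difference, Satb1 minus GFP, of the 14 receptor probe sets above the floor, with bars of 1 SD between probe sets of the same gene at that intensity (0.13 to 0.35) and dotted lines at 2-fold. Red points represent the gene and blue points are its other probe sets. Csf3r at -1.33 is past the 2-fold line, Il3ra at -0.98 is just inside it, and the 2 Kit points lie on opposite sides of 0.

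By signal, the receptors fell into a bright and a dim set on both arrays. Csf1r, Csf2rb and Kit lay above 94.6% of all probe sets or more on either array, and Flt3 lay above 87.4% or more. Csf3r moved from above 86.6% of probe sets on the GFP-labelled array to above 76.5% on the Satb1-labelled array. Csf2ra, Il3ra, Il7r and Epor lay between the 61st and the 72nd percentile on both. In order of signal Il3ra was at place 7 of 9 on the GFP-labelled array and at place 9 on the Satb1-labelled array, and Epor went from place 9 to place 7. Csf1r and Csf2rb, at places 1 and 2, exchanged places. Probe sets bind their targets unequally, so this is an order of brightness and not of transcript amount, and neighbours in it were not separated by any replicate spread.

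**Figure D3:**
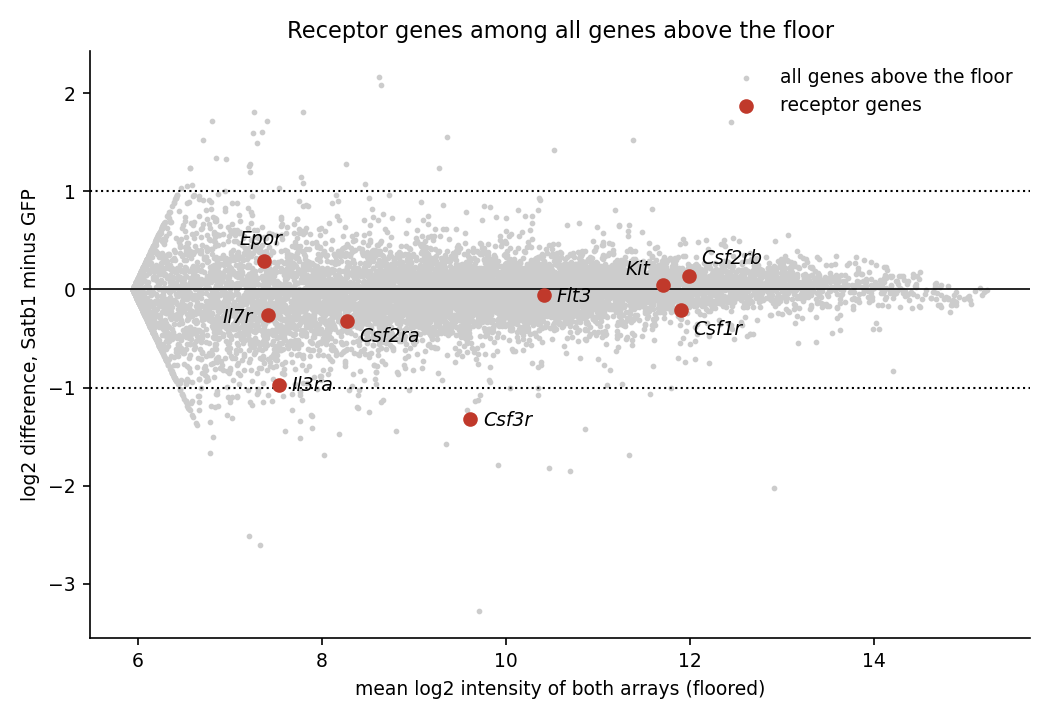
Log2 difference, Satb1 minus GFP, against mean log2 intensity for the 11048 genes above the floor on at least 1 array (grey) and the 9 receptor genes (red), with dotted lines at 2-fold. Csf3r stands well below the grey cloud at its intensity, Il3ra lies near its lower edge, and the other 7 are inside it.

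The genes around the receptors in the pathway were read from lists. Of 8 measured ligand genes, which encode the factors that these receptors bind, 6 were under the floor on both arrays, among them Kitl, the stem cell factor gene (32.1 and 47.4), Csf3, the G-CSF gene (8.3 and 3), and Il3 (8.2 and 3.5). The other 2 were above it on 1 array only and none was 2-fold apart: Il7 read 68.6 on the Satb1-labelled array against 56 on the GFP-labelled array, and Tslp, an epithelial cytokine gene, 46.8 against 101.5. The ligand probe sets thus mostly gave no signal above the floor, while the brightest probe set of each of the 9 receptors did.

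Among 37 other cytokine and growth factor receptors measured, 28 were above the floor. Of these 0 were 2-fold higher, 1 was 2-fold lower and 27 were within 2-fold. The lower one was Il10ra, the IL-10 receptor alpha chain, at 92.8 on the Satb1-labelled array against 197 on the GFP-labelled array, with its other probe sets under the floor. The list's median log2 difference was 0.03, with 16 genes higher by some amount and 12 lower, where the median of all genes was -0.02. The brightest were Crlf2, the TSLP receptor chain that pairs with Il7r, at 3721 against 3873, and Igf1r, the IGF-1 receptor gene, at 2916 against 2687.

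The relay downstream of the receptors differed little. All 21 measured kinases and STATs were above the floor and within 2-fold, with a median of 0.00. Jak1, a Janus kinase that serves Il7r, read 3104 against 3018 and Pik3cd, a PI3-kinase catalytic subunit of blood cells, 9958 against 9605. The largest differences were those of Tyk2, another Janus kinase, at 663 against 896, and Braf, a kinase of the MAP kinase cascade, at 652 against 807, with its other probe sets going both ways. Of 19 adaptors and docking proteins measured, 17 were above the floor and within 2-fold, with a median of -0.02. Gab1, a docking protein, read 196 against 285, Plcg1, a phospholipase, 1057 against 1386, Plcg2, its blood cell relative, 5241 against 4989 and Ptpn11, the phosphatase SHP2, 3286 against 3266.

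Negative regulators and target genes bear on the output of the pathway. Of 23 measured negative regulators, 22 were above the floor and all of these were within 2-fold, with a median of -0.02. Spry2, an inhibitor of receptor kinase signalling, read 509 against 332 and Cblb, a ubiquitin ligase, 421 against 553. Ptprc, the CD45 phosphatase gene, read 6960 against 7144 and Ptpn2, a phosphatase of Janus kinases, 4705 against 4565. Of 21 target genes, 1 was 2-fold higher and 20 were within 2-fold, with a median of 0.00. The higher one was Fos, an AP-1 subunit gene, at 2406 against 899. Mcl1, a survival gene, read 7427 against 6228 and Ccnd2, a D cyclin gene, 10006 against 10392. Cish and Socs2, STAT5 targets chosen after their values were seen, read 636 against 585 and 945 against 1032. Egr1, a transcription factor gene chosen the same way, read 1806 against 963, within 2-fold. By some amount, 11 of the 21 target genes were higher and 10 lower.

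The transcription factors known to act on these receptor genes were within 2-fold, in 22 of 22 above the floor, with a median of -0.02. Runx1, a factor of blood stem cells, was furthest from 0, at 1611 against 960 by its brightest probe set, but another of its probe sets (1452531_at) read 117 against 249. Klf1, given above beside Epor, was the second furthest. Myb and Lmo2, stem and progenitor factors, were the brightest, at 13744 against 14846 and 11627 against 13191. The factors best known for Csf3r, chosen after their values were seen, were Cebpa, the C/EBP alpha gene, at 1689 against 1989, and Spi1, the PU.1 gene, at 1062 against 931. These went opposite ways, by log2 differences of -0.24 and 0.19.

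Stem cell and gate markers and megakaryocyte markers complete the picture of the cells. Of 10 measured stem cell and gate markers, 1 was 2-fold higher, 1 was 2-fold lower and 8 were within 2-fold. Those 8 include Kit and Flt3, given above, so the count is not independent of the receptors. Slamf1, the CD150 gene, read 233 against 95.7, with its other probe sets under the floor on both arrays. Fgd5, a stem cell gene, read 61.3 against 129, the former just under the floor, and was 2.10-fold lower after the floor was applied. Cd34, a progenitor surface gene, read 8197 against 8563. All 10 megakaryocyte markers measured were above the floor and within 2-fold, 9 of them higher by some amount. Pf4 and Itga2b, platelet genes, read 21045 against 19179 and 3841 against 3515, and Ppbp and Selp, also platelet genes, 3075 against 1753 and 1528 against 909.

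**Figure D4:**
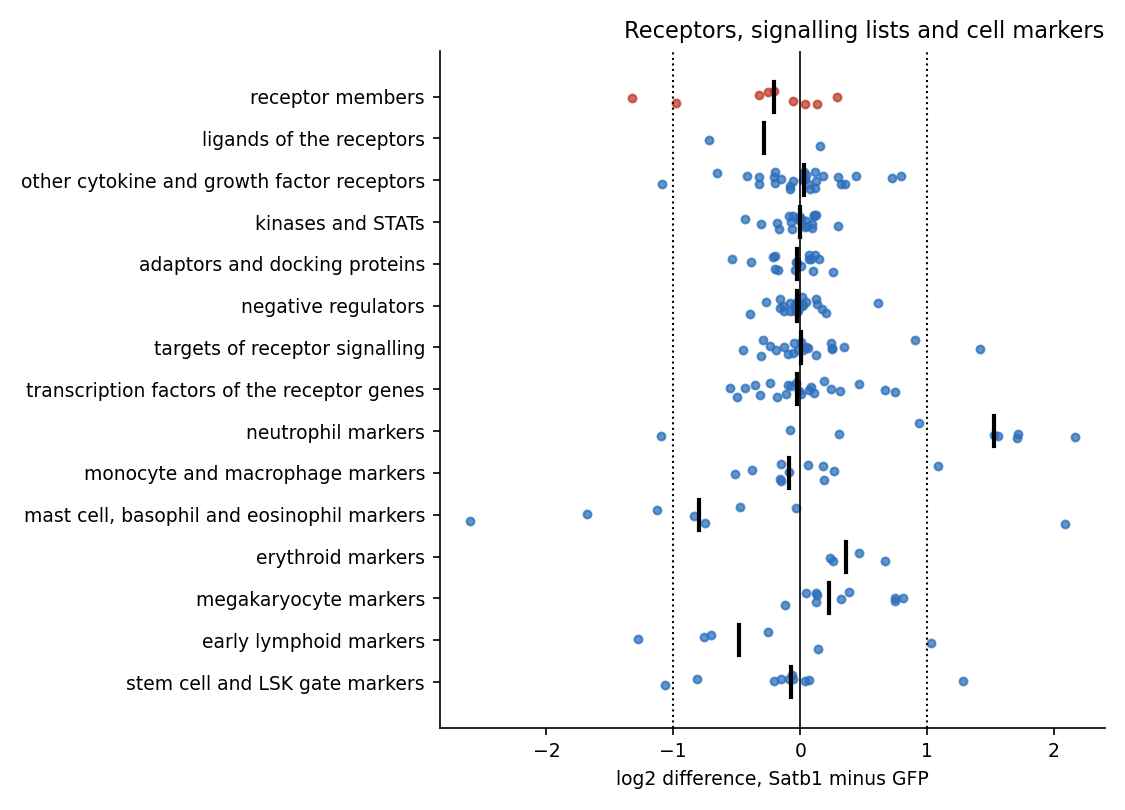
Log2 difference, Satb1 minus GFP, of each gene above the floor on at least 1 array, for the 9 receptors (red) and for the signalling lists and cell markers (blue), with a black bar at each list's median and dotted lines at 2-fold. The receptor median is -0.21 and those of the kinase, adaptor, regulator, target and factor lists lie between -0.02 and 0.00, while neutrophil and mast cell markers spread past 2-fold. Il7r is also in the early lymphoid list, and Kit and Flt3 are also in the stem cell and gate list.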

How the data were processed

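Biotin-labelled cRNA of 2 samples was hybridised to 1 Affymetrix array each. The deposited values are MAS5 intensities on a linear scale, per the submitters' processing notes. The sources used here name no version, scaling target or genome build. Trimmed by 2% at either end, the mean intensity was 497 on both arrays. Arrays have no read depth, and their number limits the precision. The platform annotation gave 1 symbol to 34945 of 45037 probe sets, several to 932 and none to 9160; Entrez IDs updated 34741 through RefSeq (GRCm38.p6). Each gene was read from its brightest probe set (highest mean log2 over both arrays). Values under the floor of 61.7 were set to it, with no further normalization, and a gene counted as apart at 2-fold. Scripts (Python 3.11.15, pandas 2.3.3) were tested on simulated data. Members, floor and gene lists were chosen with earlier results of these data known. Of each list, up to 4 genes furthest apart at 2-fold, or otherwise 2, and the 2 brightest are named. Names outside this rule were chosen with values in view and say so or show a marker under the floor. Csf2rb2 is also outside the rule and is given as the close copy of Csf2rb.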

Additional observations from a re-analysis of the deposited data

How the results depend on the processing

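Each choice was varied in turn: 4 other treatments of dim values, 2 other scalings, 2 other ways to represent a gene and 2 other thresholds. Csf3r was 2-fold lower under all 8 alternatives that keep the threshold, with log2 differences from -1.33 to -1.27, and no receptor was 2-fold higher under any. For Csf3r the other floors, no floor and the 2 other ways to represent a gene could not change the value. It has a single probe set, which read above each floor on both arrays. The settings that could change it were quantile normalization (-1.29), the median difference set to 0 (-1.30), and 32 added to each intensity in place of the floor (-1.27). The count followed the threshold: at 1.5-fold 2 receptors were lower (Csf3r and Il3ra) and at 3-fold 0. With the floor at the 75th percentile (443), 5 of 9 receptors were above it on both arrays, and the differences of Csf2ra, Il3ra, Epor and Il7r became 0 because both readings fell under it. Kit changed sign, to -0.19, with the mean over its probe sets. Flt3, Csf1r, Csf2rb and Csf3r kept their sign under all 8, and Csf2ra, Epor, Il3ra and Il7r under 7, the exception being that floor. Quantile normalization took Epor from 0.29 to 0.43. Of 72 recomputed receptor differences, 69 moved by no more than the SD between probe sets of a gene. That count is a weak check, since many of the 72 could not move. A floor at the 25th percentile, no floor, and leaving out probe sets named _s_at or _x_at left every receptor difference unchanged. The Epor and Il7r differences that became 0 also counted as within that SD, which was 0.35 for them. No paired analysis was possible because each group had 1 array, and none could be left out.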

Other observations

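Some other receptor tyrosine kinases, chosen after their values were seen, read higher on the Satb1-labelled array. Kdr, the VEGF receptor 2 gene and the neighbour of Kit on the chromosome, read 107 against 20, the latter under the floor. Tie1, an endothelial receptor gene, read 180 against 133, and Met, the hepatocyte growth factor receptor gene, 241 against 146 by 1 of its probe sets. Tek, the angiopoietin receptor gene, was nearly level, at 307 against 302. All 4 were within 2-fold after the floor was applied. Insr, the insulin receptor gene, chosen the same way, read lower, at 739 against 782. The receptor tyrosine kinase genes Axl and Mst1r were under the floor on both arrays. Pdgfra, the neighbour of Kit on the other side, was under the floor on both arrays, at 25.4 and 11.2 by its brightest probe set. Pdgfrb, the neighbour of Csf1r, read 1073 against 988. Il27ra and Hlf were also chosen after their values were seen. Il27ra, the IL-27 receptor gene, read 88.9 against 140. Hlf, a stem cell transcription factor gene, read 382 against 673 and, by its second probe set, 270 against 562.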
